A study of Homo sapiens with 52 samples.

Results

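The first day of recovery from plasma membrane damage by the detergent sodium dodecyl sulfate (SDS) was examined in the gene expression of WI-38 cells, a line of normal human embryonic lung fibroblasts with a limited replicative lifespan. The genes described are the 14390 of 59408 listed genes (24.2%) whose deposited mean of normalised counts over the SDS-treated day 1 and the untreated libraries was at least 10, and 28731 genes had a mean above 0. The lowest mean of a gene included was 10.0 and the highest mean of a gene outside was 9.99. In the series, mRNA was sequenced from cells made senescent in 4 ways, with 52 libraries in 26 groups of 2. Cells treated with SDS at 0.009% for 24 h (PMD-Sen, for plasma membrane damage), with KCl at 75 mM for 24 h (Ca2+-Sen) or with doxorubicin at 250 nM for 24 h (DDR-Sen, for DNA damage response) were washed and collected on 8 days from day 0, the day of the wash, to day 16. Replicatively senescent cells (RS) were a further group.

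In PMD-Sen day 1, the cells had thus been under SDS for 24 h and in fresh medium for 1 day. The Untreated group was young cells between population doubling levels 32 and 46 that received none of the agents, grown like all other groups in DMEM with 10% serum. The labels do not say on which day these cells were collected. The study's methods call the samples sequenced independent, without saying whether they came from separate cultures, and the p-values measure the spread between these samples. The same Untreated libraries were used for every comparison with untreated cells, and comparisons that share them are given side by side without a test between them. All values are from bulk RNA, in which a smaller share of expressing cells and less RNA per cell cannot be told apart.

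A hole in the plasma membrane lets Ca2+ into the cell, and the membrane is closed again by annexins, by calpain proteases that cut the cortical cytoskeleton, by lysosomes that fuse with the surface and by the ESCRT complexes that pinch off damaged membrane. A cell that survives has to restore its ion balance, protein folding and lipid supply, and it may leave the cell cycle for a time or for good. Cells that leave it for good while staying alive are senescent, and they are known for an altered matrix, altered secretion and loss of the nuclear lamina protein lamin B1.

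The deposited tables give means over 4 libraries and the results of comparisons, not the counts of single libraries. Whole read counts of every library were therefore solved from the means of many tables, each of which combines the same 2 Untreated libraries with 2 others. For 14105 of the 14390 genes this gave 1 solution in PMD-Sen day 1. For the other 285, all with a deposited mean of at least 10030.5, only the mean of the 2 libraries of PMD-Sen day 1 is known, and for these genes that group entered the test with its level and not with its spread. Where a group's split between its libraries is not known, its mean is given. The 2 libraries of a group are called larger and smaller by their total, and values are given in that order. Normalised counts are read counts divided by a size factor per library. Fold changes are differences of the mean of log2(normalised count + 1), given with their standard error, and limma's moderated test, with Benjamini-Hochberg adjustment over the 14390 genes, had to give an adjusted p under 0.05 for a call.

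The Untreated libraries held 18971753 and 15258997 counted reads, and those of PMD-Sen day 1 held 35155948 and 19332221. Within a group, the log2 values of the libraries had a standard deviation of 0.179 in Untreated and 0.162 in PMD-Sen day 1. The summed level of the 11 fibroblast markers was 893007 and 718274 normalised counts in Untreated and 426986 and 428942 in PMD-Sen day 1, where 8 of the 11 were lower, most of them matrix genes, and none was at 0. The sum of the 8 white blood cell markers was between 10.9 and 34.2 in these 4 libraries, with 4 to 6 of the 8 at 0. The 10 epithelial and endothelial markers summed to 2713 and 2578 in Untreated and to 1791 and 1731 in PMD-Sen day 1, mostly from the keratin genes KRT18 and KRT8. Of all genes with a mean of at least 100, 68 differed by over 4-fold between the 2 libraries of at least 5 groups, and these jumping genes include 4 of the calls below.

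Against Untreated, 2534 genes (17.6%) were higher and 2262 (15.7%) were lower in PMD-Sen day 1, together 33.3% of the 14390. Most of these differences were small, since 410 of the higher and 537 of the lower genes reached 2-fold. The 5th and 95th percentiles of all log2 fold changes were -0.93 and 0.83. Of the calls, 52.8% were higher, and this share was 62.5%, 73.3% and 49.0% when the libraries were scaled by their totals, by the 75th percentile of all genes above 0 and by the 75th percentile of the 14390 genes. Against PMD-Sen day 0, 4573 genes (31.8%) were higher and 4024 (28%) were lower, 59.7% in all, so more genes separated day 1 from the end of the SDS treatment than from untreated cells. On day 0 itself, 28.2% of the genes were higher and 30.3% lower than in Untreated, 58.5% in all. The plot of all genes by level and change shows these calls.

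**Figure D1:**
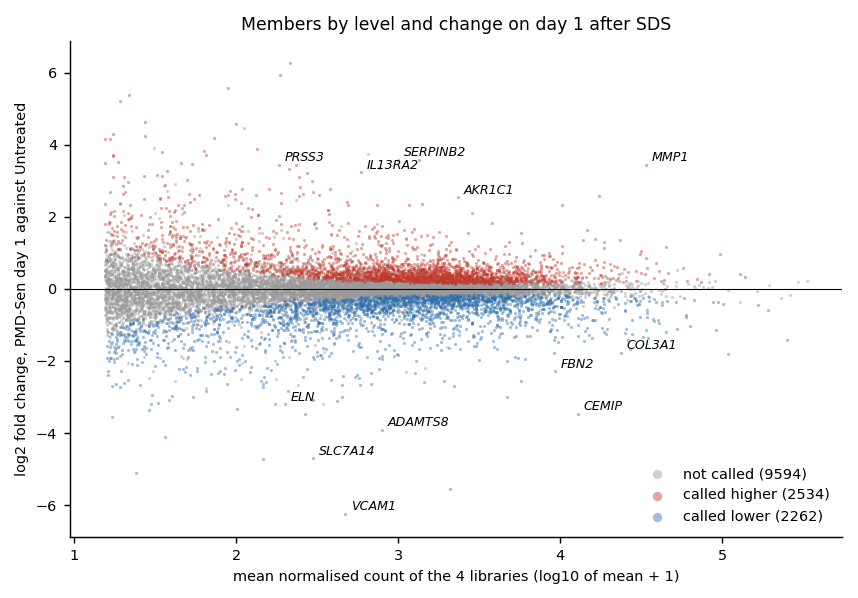
Each point is 1 of the 14390 genes, placed by the log10 of its mean normalised count over the 2 Untreated and the 2 PMD-Sen day 1 libraries (horizontal) and by its log2 fold change, PMD-Sen day 1 against Untreated (vertical). Red points are the 2534 genes called higher, blue points the 2262 called lower and grey points the 9594 not called; MMP1 and CEMIP are named among the abundant genes with large changes.

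The largest changes were ranked among those calls that had a mean of 100 or more, groups without overlap and, in each group, libraries within 2-fold of each other. The largest rise after that of PEX5, an unstable gene described below, was that of SERPINB2, the gene of plasminogen activator inhibitor 2. It had 147 and 157 normalised counts in Untreated, 566 and 412 on day 0, 1661 and 2033 on day 1 and 810.2 and 677 on day 2. Every day 1 library was thus above every library of the other groups, with a log2 fold change of 3.59 ± 0.29 against Untreated (adjusted p = 2.8e-10). SLC6A15, a transporter of neutral amino acids, went from 194 and 219.6 in Untreated and 744 and 732 on day 0 to 2294 and 2641 on day 1 (3.57 ± 0.46, adjusted p = 7.91e-07).

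In other genes with large rises, the day 0 libraries overlapped with those of Untreated. PLEK2, a pleckstrin family protein that binds phosphoinositides, had 34.6 and 40.3 normalised counts in Untreated, 34.3 and 45.6 on day 0 and 369 and 402 on day 1 (3.33 ± 0.40, adjusted p = 2.53e-07). PRSS3, a trypsinogen, had 23.1 and 38.3, then 34.3 and 26.3, then 295 and 378 (3.45 ± 0.43, adjusted p = 4.78e-07). For both genes the day 1 libraries lay above all libraries of Untreated and day 0. PRSS3 has near-identical relatives among the trypsinogen genes, so its reads could be split between them. The potassium channel gene KCNC4 (2.77 ± 0.25) and IL13RA2 (3.24 ± 0.81), a receptor that binds interleukin 13 without signalling in the usual way, rose too, together with the unnamed transcripts AC097451.1 (3.35 ± 0.60) and AL391056.1 and the pseudogene RPLP0P2, whose reads could be shared with its parent gene.

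The largest fall by the same rule was that of VCAM1, the vascular cell adhesion molecule, which is described with the NF-kB genes below. GCNT4, an enzyme that branches O-glycans, had 703 and 789.6 normalised counts in Untreated, 226 and 192 on day 0 and 93.8 and 76.6 on day 1, a log2 fold change of -3.12 ± 0.23 (adjusted p = 3.44e-11). CEMIP, a hyaluronan-degrading protein, had 24446 and 22862 in Untreated and 2343 and 1966 on day 1, a log2 fold change of -3.46 ± 0.37 (adjusted p = 4.52e-07). CEMIP was as low at the end of the treatment, with 1403 and 1079 on day 0 (day 1 against day 0: 0.80 ± 0.37, adjusted p = 0.0645). SLC7A14 (-4.70 ± 0.46), ADAMTS8 (-3.90 ± 0.60), TOX (-3.47 ± 0.35), ELN (-3.20 ± 0.57) and GDF5 (-3.18 ± 0.40) fell in the same way, and in each of them both day 1 libraries lay below both day 0 libraries.

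The same rule also picked 3 genes whose values are unstable. PEX5 (3.89 ± 1.52) and EEF1B2 (-5.55 ± 1.78) are jumping genes, which differed by over 4-fold between the libraries of 11 and 9 of the 26 groups. GSDMD (-4.72 ± 1.78) had 305 and 259.9 normalised counts in Untreated and 10.1 and 9.38 on day 1, but 17.8 and 262 in the 2 libraries of Ca2+-Sen day 1. All 3 lost the call in other settings, and no more is drawn from them.

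Many cell cycle genes were above their level at the end of the treatment, and a part of the replication genes was still below that of untreated cells. Of 31 DNA replication genes, none was higher and 15 were lower than in Untreated (median log2 fold change -0.47, against 0.000555 over all genes), and 27 were higher and 1 lower than on day 0 (median 1.16). TYMS, the thymidylate synthase, had 1154 and 1104 normalised counts in Untreated, 212 and 227 on day 0, 321 and 356 on day 1 and 612 and 635 on day 2. No 2 of these groups overlapped, and day 1 differed from Untreated by -1.74 ± 0.18 (adjusted p = 2.59e-08) and from day 0 by 0.62 ± 0.18 (adjusted p = 0.00392). The replicative helicase subunit MCM6 had 1490.1 and 1269 in Untreated, 503 and 595 on day 0 and 769.7 and 795 on day 1 (-0.81 ± 0.16, adjusted p = 0.000174). TK1 (-1.56) and RRM2 (-1.04), which make nucleotides for replication, fell too, though the call of RRM2 was lost without any of the 4 libraries (adjusted p 0.0585 to 0.261).

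The promoter of MCM6 is shown because it holds the E2F motif on which replication genes are switched in the textbook scheme. It is the 160 bases before the start of MCM6 at chr2:135876444-135876603 on the minus strand (RefSeq, GRCh38.p14), 5′ to 3′, with the motif in capitals; TTTGGCGC overlaps there with the reverse of TTTCGCGC.
MCM6: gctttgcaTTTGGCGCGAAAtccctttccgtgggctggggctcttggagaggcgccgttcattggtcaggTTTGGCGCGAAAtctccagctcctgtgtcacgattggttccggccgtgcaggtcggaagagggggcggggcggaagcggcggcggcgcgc
Windows from 250 bases before to 50 bases after the start, read on both strands, were found for 28 of the 31 replication genes. TTTGGCGC was in 17.9% of these, against 0.659% of all 27305 promoters in the table, and TTTCGCGC in 17.9% against 0.546%. Among the genes called higher and those called lower as a whole, TTTGGCGC was in 0.944% and 0.884%, against 1.05% of the described genes with a promoter, and TTTCGCGC was in 0.845% and 1.59%, against 1.01%.

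Of the mitotic genes, all 31 were higher than on day 0 (median 1.86). Against Untreated, 5 of them were lower and none was higher (median -0.47), a share close to the 15.7% of all genes called lower. KIF20A, a kinesin of cytokinesis, had 1819 and 1799 normalised counts in Untreated, 92.7 and 189 on day 0, 533 and 706 on day 1 and 1169 and 987 on day 2 (day 1 against Untreated: -1.56 ± 0.51, adjusted p = 0.018). That call was lost without the larger day 1 library (-1.36, adjusted p = 0.112) and without the larger (-1.55, adjusted p = 0.0755) or smaller (-1.57, adjusted p = 0.066) Untreated library. CDK1, the mitotic kinase, had 981 and 963 in Untreated, 136 and 219.7 on day 0 and 785 and 1009 on day 1, so that its day 1 libraries enclosed those of Untreated (-0.13 ± 0.53, adjusted p = 0.881). CCNB2, which encodes cyclin B2, had 922 and 908, then 157 and 265, then 471 and 602. Its difference from Untreated was -0.78 ± 0.31 (adjusted p = 0.0481), a call that was lost without any of the 4 libraries (adjusted p 0.0683 to 0.248), and its difference from day 0 was 1.38 ± 0.31 (adjusted p = 0.00027).

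The promoter of CCNB2 is shown for the pair of elements of mitotic genes, CCAAT boxes followed by the cell cycle homology region (CHR), TTTGAA, here in capitals. It is the 120 bases before the start at chr15:59105026-59105145, plus strand.
CCNB2: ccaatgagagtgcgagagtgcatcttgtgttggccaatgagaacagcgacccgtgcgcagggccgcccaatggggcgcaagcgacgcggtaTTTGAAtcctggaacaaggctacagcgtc
The letters TTTGAA were in 69.2% of the 26 mitotic promoters found, against 15.4% of all promoters.

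Genes that control G1 and the exit from it changed in both directions. Of 23 G1 cyclins, CDK inhibitors and E2F factors, 3 were higher and 6 were lower. E2F7, a repressor of E2F targets, had 1246 and 1180.4 normalised counts in Untreated, 4295 and 4928 on day 0 and 2683 and 3303 on day 1 (1.29 ± 0.23, adjusted p = 7.29e-05). CDKN2B, which encodes the CDK4 and CDK6 inhibitor p15, had 397 and 308, then 817 and 1139.9, then 698 and 825, and on day 2 it was at 274 and 310.4 (day 1 against Untreated: 1.12 ± 0.24, adjusted p = 0.000646). Its neighbour CDKN2A rose by less (0.45 ± 0.11), and without the smaller day 1 library that call was lost (adjusted p = 0.0504). MYBL2, a factor of the G2 programme, fell by 1.49 on the log2 scale.

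Most replication-dependent histone genes with enough reads were higher. Of 53 replication-dependent histone genes, 16 had enough reads to be included, and 11 of these were higher and none was lower than in Untreated (median 0.90). A gene below the minimum mean in Untreated could be included only if it was higher on day 1. Against the same Untreated libraries, 15 of the 16 were higher in DDR-Sen day 1 (median 1.35) and 7 in Ca2+-Sen day 1 (median 0.42), with none lower in either. H2BC8 had 93.9 and 105 normalised counts in Untreated, 173 and 134 on day 0, 354 and 317 on day 1 and 229 and 166 on day 2 (1.75 ± 0.21, adjusted p = 2.73e-07). H2BC5 had 211 and 191 in Untreated, 240.0 and 238 on day 0 and 468 and 477 on day 1 (1.23 ± 0.15, adjusted p = 2.38e-07). These genes are near-identical copies of each other, so their reads could be split between them, and how reads of several places were counted is not given in the sources used here.

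The promoter of H2BC5, the 150 bases before its start at chr6:26157971-26158120 on the plus strand, is shown with its CCAAT boxes in capitals on either strand, since histone promoters are known for them.
H2BC5: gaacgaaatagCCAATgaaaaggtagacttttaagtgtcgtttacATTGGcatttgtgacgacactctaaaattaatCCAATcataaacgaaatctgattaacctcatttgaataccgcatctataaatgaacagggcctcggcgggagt
CCAAT on either strand was in 93.8% of the 16 histone promoters, against 35.7% of all promoters, and the short motif is thus frequent everywhere.

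Genes of nuclear lamina and chromatin structure proteins were mostly lower, with 9 of 12 lower and 2 higher. HMGN2, a nucleosome-binding protein, had 7775 and 7445 normalised counts in Untreated, 4745 and 4764 on day 0, 2966 and 3136 on day 1 and 4823 and 4665 on day 2. Day 1 was thus its lowest day of these, at -1.32 ± 0.11 against Untreated (adjusted p = 7.57e-10). The lamin B1 gene LMNB1 had a different course, with 1671 and 1422 in Untreated, 91.4 and 133 on day 0 and 560.3 and 636 on day 1 (-1.37 ± 0.30, adjusted p = 0.000678). HMGA2, an architectural factor of proliferating and embryonic cells, was one of the 2 that rose, from 10408 and 10879.8 to a mean of 26384 (1.30 ± 0.24, adjusted p = 0.000111), after 4519 and 4999 on day 0.

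**Figure D2:**
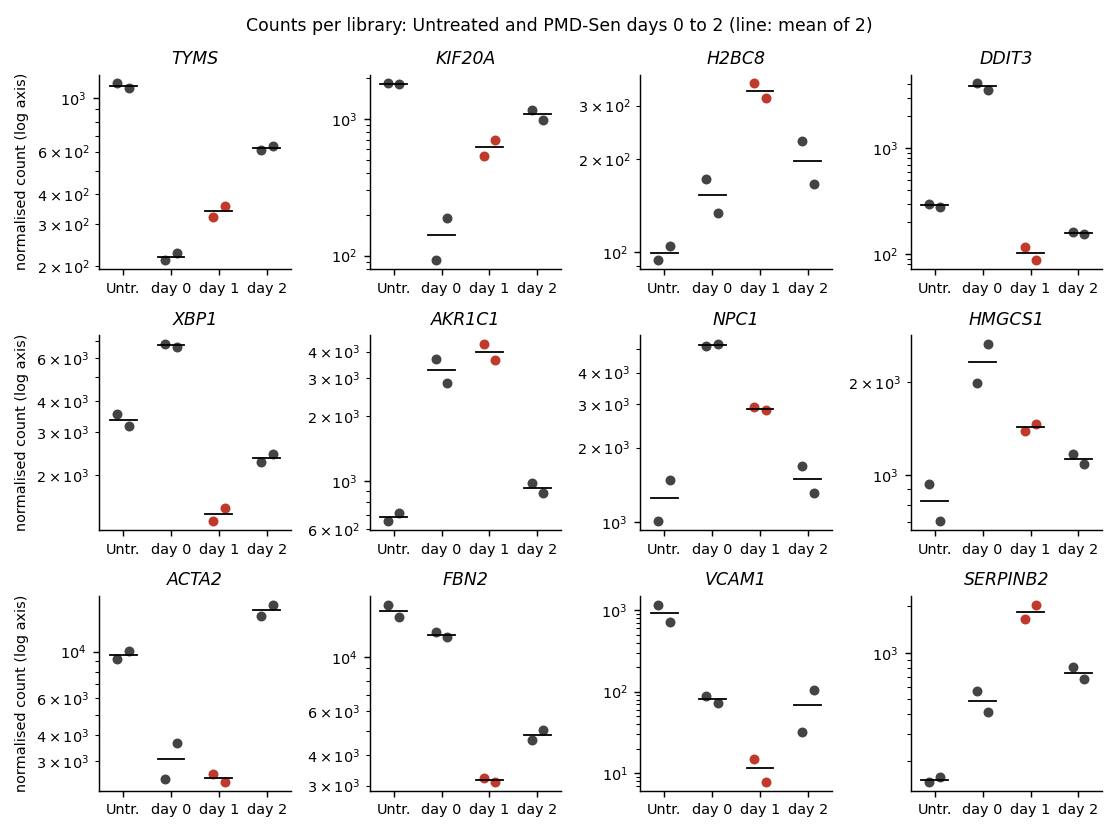
Normalised counts per library on a log axis for 12 genes in Untreated cells and on days 0, 1 and 2 of PMD-Sen. Points are the 2 libraries of a group, red on day 1, and lines are their means; day 1 is the lowest day for DDIT3, XBP1, FBN2 and VCAM1 and the highest for H2BC8, AKR1C1 and SERPINB2.

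Many targets of the factor ATF4 and many genes of the unfolded protein response were high at the end of the SDS treatment and below the untreated level 1 day later. ATF4 is a transcription factor made when translation initiation is slowed by stress, and it drives amino acid supply and, under long stress, cell death genes. Of 26 ATF4 targets, 25 were higher and 1 was lower on day 0 than in Untreated, and on day 1 none was higher and 15 were lower (median -0.53). DDIT3, the CHOP factor, had 299.7 and 278 normalised counts in Untreated, 4089.6 and 3554 on day 0, 116 and 87.5 on day 1 and 160.3 and 156 on day 2. Day 1 differed from Untreated by -1.51 ± 0.18 on the log2 scale (adjusted p = 1.99e-07) and from day 0 by -5.23 ± 0.18 (adjusted p = 2.55e-20).

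ATF3, a stress-induced repressor, had 394 and 421 normalised counts in Untreated, 5657 and 3829 on day 0 and 125 and 144 on day 1 (-1.60 ± 0.26 against Untreated, adjusted p = 2.58e-05). STC2, a secreted glycoprotein, had 14443 and 15049.6, then a mean of 59539.7, then 6281 and 5455 (-1.33 ± 0.11, adjusted p = 4.57e-08). Not all targets went below the start. CTH, which makes cysteine, fell from 999.5 and 1075 on day 0 to 24.3 and 28.1 on day 1, against 32.9 and 30.2 in Untreated (-0.26 ± 0.23, adjusted p = 0.41). TRIB3, a pseudokinase that dampens ATF4, fell from 14603 and 14047 on day 0 to 477 and 508, and its call against Untreated (-0.58 ± 0.18) was lost without the larger Untreated (-0.44, adjusted p = 0.155) or the larger day 1 library (-0.54, adjusted p = 0.0773).

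The unfolded protein response of the endoplasmic reticulum followed the same course. Of 19 genes, 17 were higher and none lower on day 0, and on day 1 none was higher and 13 were lower than in Untreated (median -0.57). HSPA5, the main chaperone of the endoplasmic reticulum (BiP), had 40297 and 35629 normalised counts in Untreated, a mean of 273662 on day 0, a mean of 14115 on day 1 and 19605 and 22254 on day 2. Its log2 fold change against Untreated was -1.42 ± 0.11 (adjusted p = 1.7e-07). XBP1, a transcription factor of this response, had 3561 and 3167 in Untreated, 6819 and 6669 on day 0, 1307 and 1483 on day 1 and 2268 and 2446 on day 2 (-1.27 ± 0.14, adjusted p = 5.44e-08). CALR, which encodes calreticulin, a chaperone that stores Ca2+, fell by 0.87 ± 0.08, and MANF, a secreted protein of the same response, by 0.73 ± 0.15.

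The promoter of HSPA5 is shown because the endoplasmic reticulum stress elements of this gene are built around CCAAT, here in capitals. It is the 200 bases before the start at chr9:125241344-125241543, minus strand.
HSPA5: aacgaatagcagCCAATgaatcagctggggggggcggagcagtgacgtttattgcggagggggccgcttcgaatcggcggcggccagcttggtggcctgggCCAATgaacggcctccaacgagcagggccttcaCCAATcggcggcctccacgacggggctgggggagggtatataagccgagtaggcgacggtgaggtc
CCAAT on either strand was in 89.5% of the 19 promoters of this list, against 35.7% of all promoters.

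Genes of cytosolic chaperones were mostly higher. Of 18 heat shock genes, 10 were higher and 2 were lower (median 0.22). DNAJB1, a co-chaperone of HSP70, had 4951 and 4673 normalised counts in Untreated, 7109 and 6581 on day 0 and 7669 and 8131 on day 1 (0.72 ± 0.08, adjusted p = 2.07e-07). HSPH1, an exchange factor of HSP70, had 5911 and 5876, then 9919 and 8731, then 9793 and 8908 (0.66 ± 0.09, adjusted p = 3.37e-06). HSPB8 rose as well (0.70), and DNAJB4 (-0.75) and HSPA4L (-0.60) fell.

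Many antioxidant genes that answer to the factor NRF2 were higher. Of 20, 13 were higher and 1 was lower than in Untreated (median 0.53). AKR1C1, an aldo-keto reductase, had 654 and 715 normalised counts in Untreated, 3701 and 2867 on day 0, 4327 and 3661 on day 1 and 981 and 883 on day 2 (day 1 against Untreated: 2.54 ± 0.23, adjusted p = 2.67e-09). AKR1B10, of the same superfamily, had 34.6 and 38.3, then 53.3 and 63.6, then 250.4 and 203, and it was back at 52.2 and 30.4 on day 2 (2.60 ± 0.36, adjusted p = 2.07e-06). Reads of AKR1C1 could be split with its near-identical relatives. The ferritin chains FTL (0.97 ± 0.10) and FTH1 (0.86 ± 0.10), which store iron, rose too. HMOX1, the haem oxygenase, went a different way, with 1123 and 1904 in Untreated, 13952 and 13343 on day 0 and 1287 and 1127 on day 1 (-0.28 ± 0.27, adjusted p = 0.45). GCLM, a subunit of the enzyme that starts glutathione synthesis, went from 6241 and 6130.4 on day 0 to 1852 and 1722, below the 2788 and 3509 of Untreated (-0.81 ± 0.13, adjusted p = 1.46e-05).

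**Figure D3:**
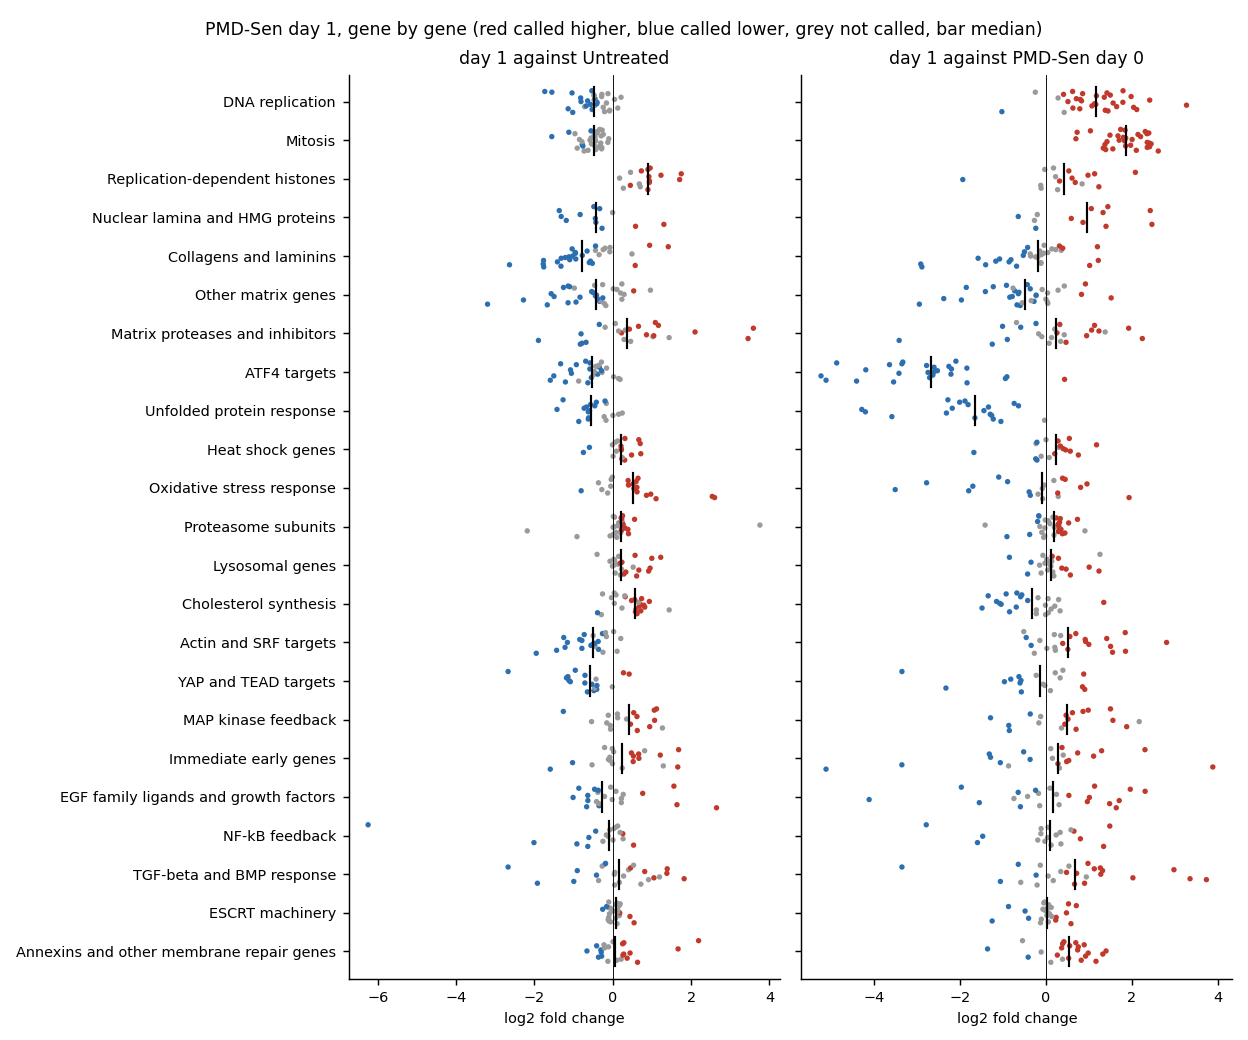
Log2 fold changes of PMD-Sen day 1 against Untreated (left) and against PMD-Sen day 0 (right) for the tested genes of 23 gene lists. Each point is a gene, red when called higher, blue when called lower and grey when not called, and the bar is the median; the median of the ATF4 targets is -0.53 on the left and -2.66 on the right, and that of the mitotic genes is -0.47 and 1.86.

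Among genes of membrane lipid supply, those of cholesterol synthesis were more often higher than lower. Of 24 genes of cholesterol synthesis and uptake, 13 were higher and 1 was lower than in Untreated (median 0.57), and 18 were higher on day 0. HMGCS1, which makes the precursor of mevalonate, had 930.3 and 707 normalised counts in Untreated, 1990.2 and 2657 on day 0 and 1389 and 1467 on day 1 (0.82 ± 0.22, adjusted p = 0.00486). This call was lost without the smaller Untreated library (0.62, adjusted p = 0.0881), as was that of MSMO1 (0.93 against 0.62, adjusted p = 0.110). NSDHL, a later enzyme of the pathway, had 884 and 778 in Untreated, 1148 and 1541 on day 0 and 1311 and 1456 on day 1 (0.74 ± 0.15, adjusted p = 0.000338). Of 12 fatty acid synthesis genes 3 were higher, led by ACLY (0.74 ± 0.10), and 2 were lower.

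The promoter of HMGCS1 is shown with the CCAAT box, which reads ATTGG on this strand, in capitals, since the factor NF-Y that binds it is known to act beside the sterol factor SREBP. It is the 150 bases before the start at chr5:43313413-43313562, minus strand.
HMGCS1: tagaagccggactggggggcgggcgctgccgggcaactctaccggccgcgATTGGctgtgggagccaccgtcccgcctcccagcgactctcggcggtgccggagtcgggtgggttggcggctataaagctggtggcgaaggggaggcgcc
CCAAT on either strand was in 83.3% of the 18 promoters of this list. It was as frequent in the mitotic list (84.6%), and it was in 35.0% of the promoters of all genes called higher. The sterol response element, to which SREBP binds, was searched as 1 fixed sequence. It was in 1 of the 18 promoters and in 0 of the 2012 promoters of genes called higher, against 0.0476% of all promoters.

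Of 23 lysosomal genes, 11 were higher and none was lower (median 0.22). CTSL, the protease cathepsin L, had 5093 and 5370.4 normalised counts in Untreated, 8353 and 7310.3 on day 0, 10031 and 10197 on day 1 and 4837 and 4923 on day 2 (0.95 ± 0.08, adjusted p = 3.18e-10). MCOLN1, the lysosomal Ca2+ channel, had 729 and 739, then 1246 and 1147, then 1520.1 and 1413 (1.00 ± 0.12, adjusted p = 2.1e-07). Day 1 was the highest of the 4 groups in both genes. CTSB, cathepsin B, came up later, from 5002 and 4644 on day 0 to 11481 and 11228 on day 1, against 6168 and 5884 in Untreated (0.91 ± 0.11, adjusted p = 2.25e-07). NPC1, which exports cholesterol from lysosomes, had 1013 and 1487 in Untreated and 2898 and 2836 on day 1, and its call (1.22 ± 0.31, adjusted p = 0.00263) was lost without the larger Untreated library (0.95, adjusted p = 0.0649). Genes of proteasome subunits were higher by small amounts, with 13 of 31 higher and none lower (median 0.20), PSMD2 having the largest called rise (0.56 ± 0.07). The 49 ribosomal protein genes tested gave 3 lower calls and none higher, and of 25 genes of ribosome biogenesis 7 were higher and 2 lower.

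The genes of membrane repair itself changed in both directions. Of 25 ESCRT genes, 3 were higher and 2 were lower, a smaller share than the 33.3% called over all genes. CHMP7, an ESCRT-III subunit that acts at the nuclear envelope, had 1826 and 1909.7 normalised counts in Untreated, 2286 and 2316 on day 0, 2449 and 2613 on day 1 and 2008 and 2050.4 on day 2 (0.44 ± 0.07, adjusted p = 8.47e-06). CHMP4B, the ESCRT-III filament subunit that the study overexpressed, had 3920.4 and 3962 in Untreated, 3968 and 3841 on day 0 and 3684 and 3583 on day 1 (-0.12 ± 0.05, adjusted p = 0.0816). All 6 of these libraries lay between 3583 and 3968.

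Of 22 annexins and other repair genes, 9 were higher and 6 were lower than in Untreated, and 16 were higher than on day 0, when 14 had been lower than in Untreated. DYSF, dysferlin, which patches membranes with vesicles, had 14.8 and 24.2 normalised counts in Untreated, 155 and 167 on day 0, 55.3 and 70.3 on day 1 and 38.9 and 44.8 on day 2 (1.67 ± 0.39, adjusted p = 0.00143), a call that was lost with voom weights, which weight genes by their level (adjusted p = 0.0936). SYT7, a Ca2+ sensor of lysosome exocytosis, had 28.0 and 6.04 in Untreated and 56.1 and 73.4 on day 1 (2.19 ± 0.61, adjusted p = 0.00582), a call that was lost without the smaller Untreated (1.17, adjusted p = 0.217) or the smaller day 1 library (2.00, adjusted p = 0.0575). These are low counts. ANXA1, an abundant annexin, went from 16156 and 17622 to a mean of 26146 (0.63 ± 0.09, adjusted p = 3.41e-05). CAV1, the coat protein of caveolae, had 45467 and 39081 in Untreated, 9237 and 11067 on day 0 and a mean of 26681 on day 1 (-0.66 ± 0.14, adjusted p = 0.00161).

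Genes of the extracellular matrix were mostly lower on day 1. Beside the collagens and laminins, of which 21 of 31 were lower and 3 higher (median -0.78), 18 of 32 other matrix genes were lower and 1 was higher (median -0.43). FBN2, the microfibril protein fibrillin 2, had 16243 and 14570.2 normalised counts in Untreated, 12647 and 12014 on day 0, 3227 and 3103 on day 1 and 4611 and 5052 on day 2. Day 1 differed from Untreated by -2.28 ± 0.26 (adjusted p = 1.28e-07) and from day 0 by -1.96 ± 0.26 (adjusted p = 1.33e-07). ELN, tropoelastin, had 267 and 455 in Untreated, 235 and 361 on day 0 and 41.9 and 32.8 on day 1 (-3.20 ± 0.57, adjusted p = 6.93e-05). The small proteoglycans DCN (-1.67 ± 0.20) and LUM (-1.57 ± 0.25) fell too. Against this, the laminin chain LAMB3, a part of laminin 332 that epithelia lay down, had 390.2 and 385 in Untreated, 504 and 402 on day 0 and 957 and 1120.3 on day 1 (1.42 ± 0.25, adjusted p = 5.97e-05).

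Of 24 matrix proteases and their inhibitors, 10 were higher and 6 were lower (median 0.37). MMP1, the interstitial collagenase, had 4339 and 7332 normalised counts in Untreated, 13044 and 13069 on day 0, a mean of 61819.9 on day 1 and 24184 and 21084 on day 2 (day 1 against Untreated: 3.45 ± 0.57, adjusted p = 3.33e-05). MMP3, stromelysin 1, had 746 and 1529 in Untreated and 5064 and 4142 on day 1, and its call (2.10 ± 0.73, adjusted p = 0.0266) was lost without the larger Untreated library (1.58, adjusted p = 0.214) and without the larger (1.95, adjusted p = 0.113) or smaller (2.24, adjusted p = 0.0778) day 1 library. The inhibitor TIMP1 rose along with them, from 27258 and 27857 to a mean of 61797 (1.16 ± 0.16, adjusted p = 3.39e-05). ADAMTS5, an aggrecan-cleaving protease, went from 473 and 471 in Untreated over 1668 and 1086 on day 0 to 121 and 131 on day 1 (-1.90 ± 0.36, adjusted p = 0.000148).

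Many contractile genes were lower than in Untreated on day 1 and rose from day 1 to day 2. The factor SRF, with its partner MRTF, switches on actin and smooth muscle genes when actin is polymerised. Of 23 such genes, none was higher and 15 were lower than in Untreated on day 1 (median -0.50), after 21 lower on day 0. Day 1 was higher than day 0 in 13 and lower in 2 (median 0.51). From day 1 to day 2, 20 rose and none fell (median 0.66), and on day 2 5 were higher and 1 lower than in Untreated (median 0.24). ACTA2, smooth muscle actin, had 9237 and 10116 normalised counts in Untreated, 2466 and 3646 on day 0, 2604 and 2386 on day 1 and 14785 and 16689 on day 2. Day 1 differed from Untreated by -1.95 ± 0.33 on the log2 scale (adjusted p = 4.57e-05), overlapped with day 0 (-0.27 ± 0.33, adjusted p = 0.508) and was followed by a rise of 2.66 ± 0.33 (adjusted p = 2.98e-06). CNN1, calponin, had 4574 and 4091, then 1471 and 1752, then 1885 and 1828, then 6373 and 7193 (-1.22 ± 0.21 on day 1, adjusted p = 4.49e-05). Reads of ACTA2 could be split with ACTG2 (-1.44), and TAGLN fell as well (-1.25 ± 0.10). The serum response element, to which SRF binds, was searched as 1 fixed sequence. It was in 0 of the 20 promoters found for this list, against 0.0366% of all promoters.

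Targets of YAP and TEAD, which read cell shape and density, were lower in 13 of 18 cases and higher in 2 (median -0.59). The largest fall was that of TGFB2, a ligand of the TGF-beta pathway, with 983 and 1029 normalised counts in Untreated, 1792 and 1431 on day 0, 181 and 136 on day 1 and 554 and 763 on day 2 (-2.67 ± 0.31, adjusted p = 1.28e-07). The matricellular genes CCN2 (-1.08 ± 0.29) and CCN1 (-0.71 ± 0.16) fell less. CCN1 had 17037 and 16774 in Untreated and 9659.7 and 11003 on day 1.

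Genes that report growth factor signalling through MAP kinases were higher. Of 18 feedback genes, 8 were higher and 1 was lower (median 0.40). SPRY4, an inhibitor of receptor tyrosine kinase signals, had 2086 and 2564 normalised counts in Untreated, 1852 and 1691 on day 0, 4534 and 5553 on day 1 and 3359 and 2786 on day 2 (1.12 ± 0.21, adjusted p = 0.000107). ETV1, an ETS factor, had 911 and 1098, then 617 and 818, then 2018 and 2178 (1.07 ± 0.21, adjusted p = 0.000178). In both genes the 2 day 1 libraries were above all libraries of Untreated, day 0 and day 2. SPRY1 (-1.26) was the 1 gene of the list that fell.

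Of 22 growth factors and their receptors, 4 were higher, all of them ligands, and 8 were lower. EREG, epiregulin, an EGF receptor ligand, had 468 and 588 normalised counts in Untreated, 1276 and 1362 on day 0, 1458 and 1831 on day 1 and 975 and 757 on day 2 (1.64 ± 0.29, adjusted p = 5e-05). AREG, amphiregulin, had 60.9 and 78.6, then 132 and 149, then 355 and 542, then 122 and 79.7 (2.65 ± 0.56, adjusted p = 0.000438). VEGFC, a ligand that acts on lymphatic endothelium, had 2657 and 3177, then 3539.7 and 4308, then 7898 and 9297 (1.56 ± 0.19, adjusted p = 3.21e-07). HGF, the hepatocyte growth factor that fibroblasts secrete, went the other way, with 8656 and 7578 in Untreated and 4016 and 4002 on day 1 (-1.01 ± 0.21, adjusted p = 0.000358).

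Of 21 immediate early genes, 8 were higher and 2 were lower. KLF2, a Krüppel-like factor, had 696 and 649 normalised counts in Untreated and 1340.0 and 1813 on day 1 (1.21 ± 0.29, adjusted p = 0.00163). NR4A2 (1.68 ± 0.55) and EGR3 (1.66 ± 0.62) were called as well. The call of NR4A2 was lost without the smaller day 1 (1.45, adjusted p = 0.130) or the larger Untreated library (1.36, adjusted p = 0.150), and that of EGR3 without the smaller day 1 library or either Untreated library (1.31 to 1.97, adjusted p 0.0603 to 0.235). With voom weights both were lost (adjusted p = 0.143 for NR4A2 and 0.158 for EGR3).

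Inflammatory genes changed in no common direction. Of 18 NF-kB feedback genes, 2 were higher and 6 were lower. VCAM1 had 1154 and 707 normalised counts in Untreated, 88.9 and 73.2 on day 0, 15.1 and 7.81 on day 1 and 31.6 and 105 on day 2. Day 1 was the lowest of the 8 PMD-Sen days by its mean, at -6.25 ± 0.68 against Untreated (adjusted p = 5.44e-08). Both libraries were also below those of day 0 (-2.78 ± 0.68, adjusted p = 0.000824). With voom weights, VCAM1 was no longer called (adjusted p = 0.0605). ICAM1, the intercellular adhesion molecule, had 2328 and 1779, then 1649 and 1393, then 438 and 578 (-2.01 ± 0.34, adjusted p = 3.37e-05).

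Of 27 chemokines and cytokines, 14 had enough reads to be included, and 3 were higher and 3 lower. IL1B had 4.94 and 6.04 normalised counts in Untreated and 34.3 and 90.6 on day 1 (3.14 ± 0.79, adjusted p = 0.00263), and CCL26, a chemokine of eosinophils, had 6.59 and 2.01 against 33.5 and 34.4 (2.87 ± 0.57, adjusted p = 0.000214). At such counts a few reads decide the fold, and the call of IL1B was lost with voom weights (adjusted p = 0.0643) and without the smaller day 1 library (2.45, adjusted p = 0.0678). In Untreated, IL1B and CCL26 were also below the minimum mean for inclusion, so both were included through their day 1 level. A gene this low in Untreated could be included only if it was higher on day 1. The number of higher calls in this list therefore depends in part on the inclusion rule. CSF1, which feeds macrophages, fell from 3007 and 3124 to 1439.7 and 1200.0 (-1.22 ± 0.20, adjusted p = 2.49e-05). IL6 had 75.7 and 119 in Untreated, 748 and 576 on day 0 and 31.8 and 59.4 on day 1 (-1.11 ± 0.47, adjusted p = 0.0683).

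Of 23 interferon-stimulated genes, 1 was higher and 4 were lower than in Untreated, while 14 were higher and 1 lower than on day 0 (median 0.92). GBP1, a guanylate-binding protein, had 2376 and 2496 normalised counts in Untreated, 151 and 148 on day 0 and 2286 and 2013 on day 1 (day 1 against day 0: 3.83 ± 0.22, adjusted p = 2.69e-15), and its difference from Untreated was -0.18 ± 0.22 (adjusted p = 0.569). The interferon-stimulated response element, read on both strands, was in 73.3% of the 15 promoters found, against 3.65% of all promoters.

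Of 25 genes of the TGF-beta and BMP response, 6 were higher and 6 lower than in Untreated, and 13 were higher and 4 lower than on day 0. PMEPA1, a feedback inhibitor of SMAD signalling, had 224 and 312 normalised counts in Untreated, 385 and 457 on day 0 and 668 and 713 on day 1 (1.38 ± 0.19, adjusted p = 2.58e-06). SMAD7, another inhibitor, had 471 and 1005 in Untreated and 1736 and 1875 on day 1 (1.39 ± 0.28, adjusted p = 0.00027). ID1, a BMP target, had 1085 and 2502 in Untreated, 471 and 688 on day 0 and 6006 and 5652 on day 1. As its Untreated libraries differ by so much, its call (1.82 ± 0.49, adjusted p = 0.00488) was lost without the larger of them (1.22, adjusted p = 0.134). BMP4, a ligand, had 1459 and 945, then 151 and 179.6, then 360.1 and 264 (-1.93 ± 0.34, adjusted p = 6.02e-05).

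Of 25 glycolytic and hypoxia genes, 9 were higher and 3 were lower. SLC2A1, the glucose transporter GLUT1, had 11152 and 12673 normalised counts in Untreated, 7128 and 7714 on day 0 and 5266 and 5389 on day 1 (-1.16 ± 0.16, adjusted p = 1.94e-06). PFKFB4, which drives flux into glycolysis, had 207 and 254 in Untreated and 405 and 413 on day 1 (0.83 ± 0.16, adjusted p = 0.000126). Of 13 genes encoded in mitochondrial DNA, 6 were higher and none lower (median 0.22). Of 4 metallothioneins 1 was higher.

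From day 1 to day 2, 1265 genes (8.79%) were higher and 1001 (6.96%) lower, 15.7% in all. Of these calls 55.8% were higher, against 36.0%, 92.7% and 51.3% when scaled by library totals, by the 75th percentile and by the 75th percentile of the described genes. Besides the contractile genes, p53 targets were higher on day 2 in 14 of 26 cases and lower in none (median 0.31), after 3 higher and 10 lower than Untreated on day 1. Of the antioxidant genes 12 of 20 were lower and none was higher (median -0.44), with AKR1C1 falling by 2.10 ± 0.23 on the log2 scale (adjusted p = 2.4e-07). The MAP kinase feedback list gave 7 lower and no higher calls, the immediate early list 8 lower and 1 higher, and AREG fell by 2.14 ± 0.56 (adjusted p = 0.00784). The call of AREG was lost without the smaller library of day 1 or of day 2 (both -1.84, adjusted p = 0.0948 and 0.116). GCNT4 rose by 2.34 ± 0.23 (adjusted p = 2.42e-08) and TGFB2 by 2.04 ± 0.31 (adjusted p = 2.86e-05), so that several of the largest changes of day 1 were already smaller on day 2. The plot of 6 genes over 8 days shows the further course.

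**Figure D4:**
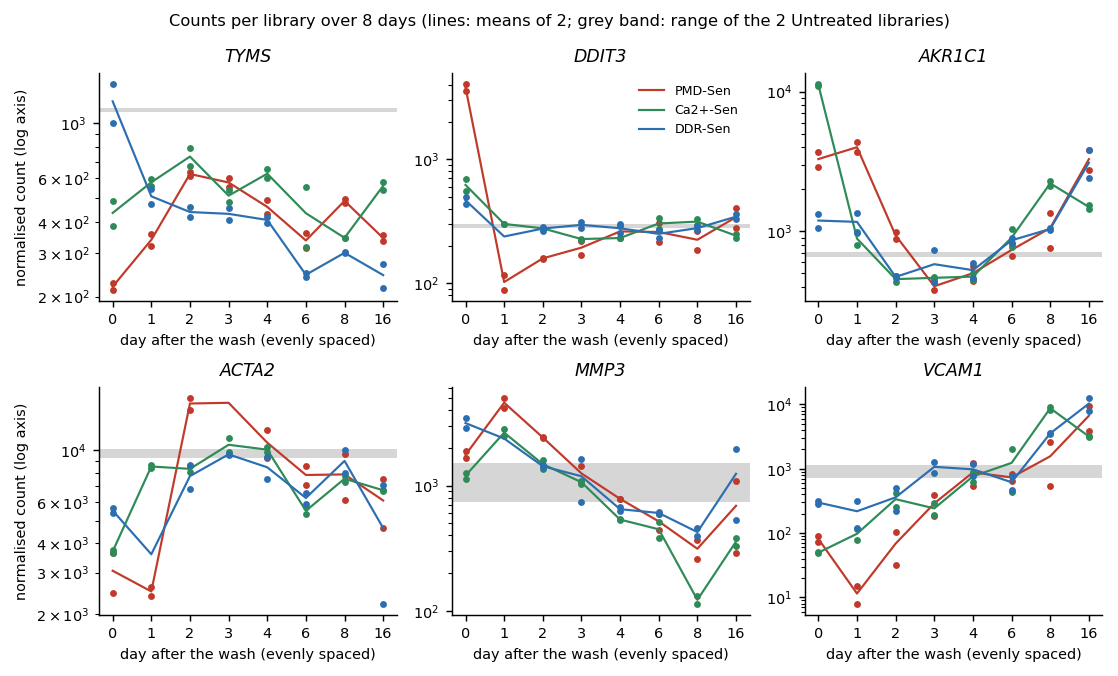
Normalised counts on a log axis for 6 genes in PMD-Sen, Ca2+-Sen and DDR-Sen on 8 days after the wash, drawn evenly spaced. Points are libraries and are missing where the split between the 2 libraries is not known, lines are means of 2, and the grey band is the range of the 2 Untreated libraries; on day 1 the PMD-Sen line is the lowest of the 3 for DDIT3, ACTA2 and VCAM1 and the highest for AKR1C1 and MMP3.

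PMD-Sen day 1 was next compared directly with the same day after the other agents, which removes the Untreated libraries from the comparison. Ca2+-Sen cells had been depolarised with KCl, which opens Ca2+ channels, and DDR-Sen cells had been given doxorubicin, which breaks DNA. The agents differ in kind and dose, so the comparison is between these treatments as given. In DDR-Sen day 1, 14832 genes had a deposited mean of at least 10, and 11255 of them (75.9%) had 1 solution. For those of the other 3577 that were tested, DDR-Sen day 1 entered with its level and not with its spread. Against Untreated, 8.36% of the genes were higher and 9.84% lower in Ca2+-Sen day 1, and 15.6% and 16.6% in DDR-Sen day 1. Against Ca2+-Sen day 1, 1646 genes (11.4%) were higher and 1392 (9.67%) lower in PMD-Sen, 21.1% in all. Against DDR-Sen day 1, 2944 (20.5%) were higher and 2540 (17.7%) lower, 38.1% in all. The share of higher calls was 54.2% and 53.7%, and it was 8.19% and 5.82% when scaled by the 75th percentile of all genes above 0, under which the median log2 fold change of all genes was -0.16 and -0.50, against 0.03 and 0.02 in the scaling used. With the 75th percentile of the described genes it was 43.2% against Ca2+-Sen. The counts below are therefore to be read relative to the median gene.

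Compared with Ca2+-Sen, ATF4 targets, genes of the unfolded protein response and matrix genes were more often lower than higher, and heat shock genes were higher in 8 of 18 cases and lower in 2 (median 0.21). ATF4 targets were lower in 16 of 26 cases and higher in none (median -0.59), and genes of the unfolded protein response in 12 of 19 and none (median -0.38). DDIT3 had 300.5 and 301 normalised counts in Ca2+-Sen day 1, close to the 299.7 and 278 of Untreated, and 116 and 87.5 in PMD-Sen day 1 (-1.56 ± 0.18, adjusted p = 2.85e-07). Other matrix genes were lower in 16 of 32 cases and higher in 1, with ELN at 605 and 522 in Ca2+-Sen (-3.89 ± 0.57, adjusted p = 1.4e-05). ACTA2 had 8580.2 and 8397 in Ca2+-Sen day 1 (-1.77 ± 0.33, adjusted p = 0.000325), and 11 of the 23 contractile genes were lower and 1 higher in PMD-Sen.

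Lysosomal genes were higher than in Ca2+-Sen in 15 of 23 cases and lower in 1 (median 0.37), and antioxidant genes in 9 of 20 and 1 (median 0.31). AKR1C1 had 802 and 968 normalised counts in Ca2+-Sen day 1, against 4327 and 3661 in PMD-Sen day 1 (2.17 ± 0.23, adjusted p = 1.08e-07). CTSL had 5898 and 5736 there (0.80 ± 0.08, adjusted p = 2.22e-08), and SLC6A15 had 374 and 432 (2.61 ± 0.46, adjusted p = 0.000139). SERPINB2 had the largest rise against Untreated after PEX5 in the ranking above. It was also high after KCl, at 1177 and 1441 against 1661 and 2033 in PMD-Sen, and no difference was called (0.50 ± 0.29, adjusted p = 0.242). The cell cycle lists gave few calls here, with 4 higher and 1 lower of 31 replication genes and 1 higher and none lower of 31 mitotic genes.

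Against DDR-Sen day 1, cell cycle genes were higher. All 31 mitotic genes were higher in PMD-Sen (median 5.03), and 28 of 31 replication genes were higher and 2 lower (median 1.83). KIF20A had 16.0 and 19.7 normalised counts in DDR-Sen day 1 (5.03 ± 0.51, adjusted p = 3.19e-09) and CDK1 had 10.0 and 12.8 (6.18 ± 0.53, adjusted p = 8.25e-11), against 533 and 706 and 785 and 1009 in PMD-Sen. MYBL2 differed by 5.35 ± 0.37. Histone genes were the exception, with 10 of 16 lower in PMD-Sen and none higher (median -0.67), and H2BC5 had 850.2 and 921 in DDR-Sen day 1 (-0.90 ± 0.15, adjusted p = 1.23e-05).

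All p53 targets but 1 were lower in PMD-Sen than in DDR-Sen (25 of 26, median -0.88), and 15 of 26 were lower than in Ca2+-Sen (median -0.37), with none higher in either. FDXR, a mitochondrial reductase and p53 target, had 763 and 847 normalised counts in PMD-Sen day 1, 1736 and 2044 in Ca2+-Sen, a mean of 3605 in DDR-Sen and 1276 and 1108 in Untreated. TP53I3 was above Untreated in all 3, at 2498 and 2372 in PMD-Sen, 3035 and 3373 in Ca2+-Sen and 3176 and 2903 in DDR-Sen against 1334 and 1349.7 (0.86 ± 0.15 in PMD-Sen, adjusted p = 7.25e-05).

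Collagens and laminins were lower than in DDR-Sen in 25 of 31 cases and higher in none (median -0.67). VCAM1 had 314 and 122 normalised counts in DDR-Sen day 1 and 117 and 77.5 in Ca2+-Sen day 1, and was lower in PMD-Sen than in both (-4.05 ± 0.68, adjusted p = 2.08e-05, and -3.02 ± 0.68, adjusted p = 0.00183). SERPINB2 (2.61 ± 0.29, adjusted p = 2.19e-08), VEGFC (1.51 ± 0.19, adjusted p = 2.16e-07) and EREG (1.27 ± 0.29, adjusted p = 0.000678) were higher than in DDR-Sen. Contractile genes were mixed, with 5 higher and 7 lower of 23, and ACTA2 had a mean of 3591 in DDR-Sen (-0.53 ± 0.33, adjusted p = 0.223).

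**Figure D5:**
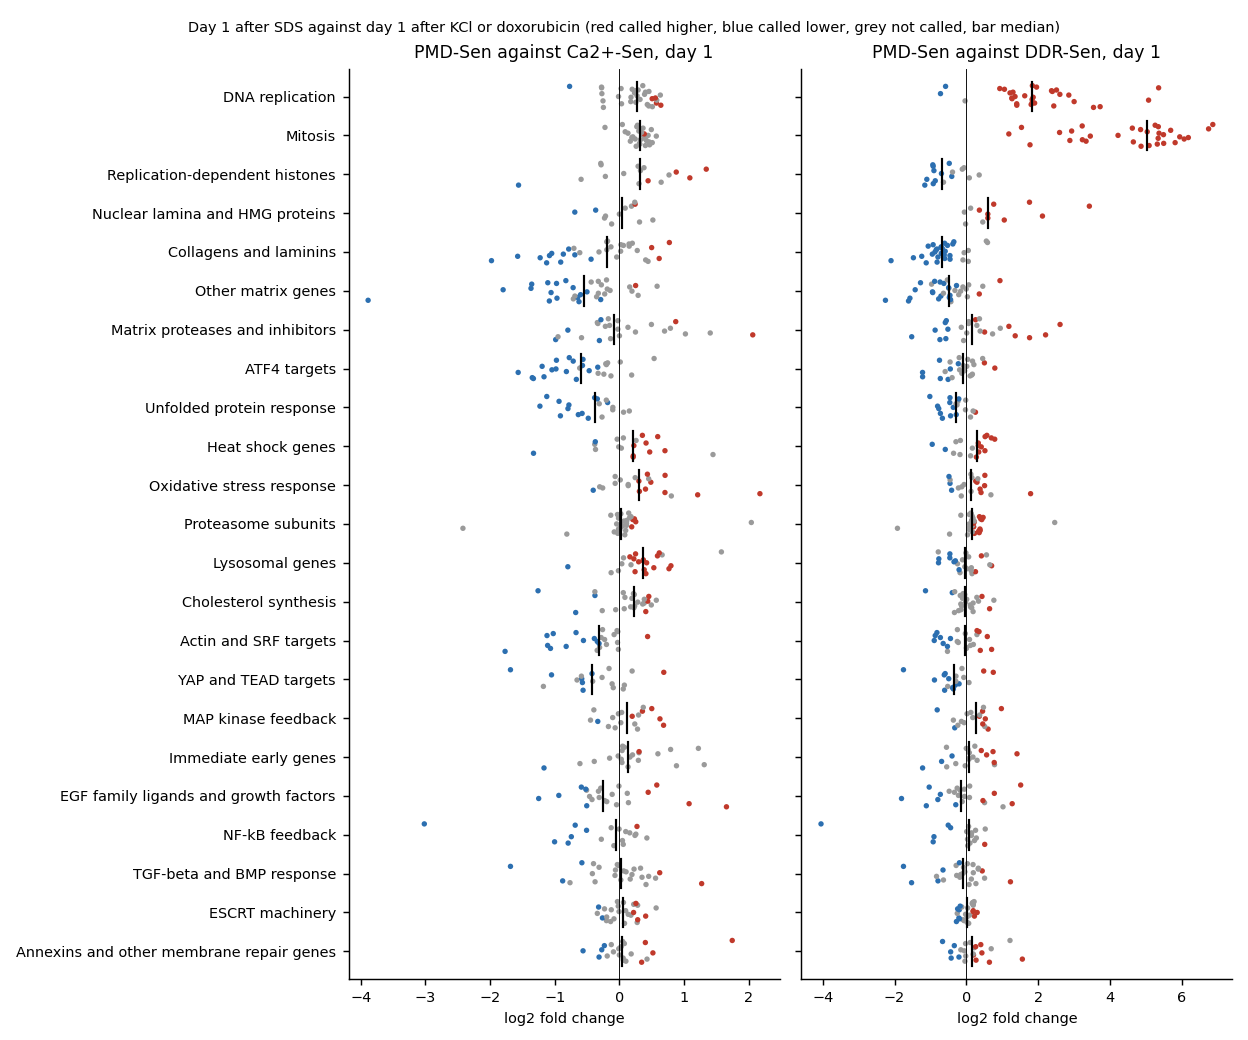
Log2 fold changes of PMD-Sen day 1 against Ca2+-Sen day 1 (left) and against DDR-Sen day 1 (right) for the tested genes of 23 gene lists. Each point is a gene, red when called higher in PMD-Sen, blue when called lower and grey when not called, and the bar is the median; mitotic genes lie at a median of 5.03 in the right panel and 0.32 in the left.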

How the data were processed

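The authors trimmed reads and aligned them to GRCh38 (hg38); per the labels, Trim Galore, HISAT2, HTSeq, featureCounts and DESeq2 were used, with versions not given in the sources used here. The deposited tables hold, per gene, the mean normalised count of the 4 libraries compared (a signal, the only column used) and the authors' own log2 fold changes, standard errors, scores, p-values and adjusted p-values, of which none was used or compared. Both files of each of the 26 groups were identical, which left 25 distinct tables, those of Untreated and RS being 1 table. Other columns of per-sample values numbered 0, and 1 row had no gene name.

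Each mean is a sum over 4 libraries of a whole count times a step set by the size factor. The pair of steps common to all tables was taken as the Untreated libraries from this membership, so the labels are tied to the libraries by table and not by replicate. Counts were solved from 6 tables with 15 digits, and all 37201 genes then had whole counts in 4 held-out tables too (largest relative misfit 6.74e-15). Both this recovery and the test were tested on simulated data. There, 13% of the genes altered by a log2 fold of 0.5 were called, and false calls were more frequent than the nominal rate. At log2 folds of 0.5, 1 and 2, 25.7%, 10.3% and 15.1% of 35, 203 and 232 calls were false. Among genes with a mean of at least 100 the share was 10.7%, 6.47% and 12.3% of 28, 170 and 171 calls, so the excess was not confined to low counts. With no gene altered, 1 of 14390 was called. These sets of calls are far smaller than the 4796 calls against Untreated, and whether the shares hold for those was not tested. Counts were scaled by median-of-ratios size factors over the 52 libraries, and limma 3.58.1 (R 4.3.3; eBayes with trend) was run on log2(normalised count + 1), with the spread shared by 26 groups (prior degrees of freedom 4.71). Counts were solved in Python 3.11.15 with SymPy 1.14.0, NumPy 2.4.6 and SciPy 1.17.1, tables were handled in pandas 2.3.3, and figures were drawn with matplotlib 3.10.9.

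The described genes and the 36 gene lists were chosen with earlier results of these data known, so no list has a test. Named genes were the 10 largest called rises and falls against Untreated and the 5 against day 0 (mean at least 100, libraries of a group within 2-fold, groups not overlapping), up to 4 called genes per list with the largest change, and LMNB1, GDF15, CDKN1A, CDKN2A, CHMP4B, ACTB and GAPDH; some genes that this rule names are not reported here. GDF15 (-0.02), CDKN1A (-0.20), ACTB (-0.25) and GAPDH (0.07) were not called against Untreated. MCM6, CDK1, HSPA4L, FTH1, HMOX1, GCLM, LAMB3, TIMP1, CCN1, CCN2, CSF1, IL6 and PMEPA1 were chosen after their values were seen. Alternatives were other scalings, voom weights, filters, another pooling of the spread and leaving out each library. Promoters were found for 10343 of the described genes.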

Additional observations from a re-analysis of the deposited data

Results flagged for a closer look

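FDXR moved in opposite directions from Untreated on day 1, and the difference between the treatments was itself tested. It was lower than Untreated in PMD-Sen day 1 (-0.56) and higher in Ca2+-Sen day 1 (0.66) and DDR-Sen day 1 (1.60). PMD-Sen day 1 minus Ca2+-Sen day 1 was -1.23 on the log2 scale (SE 0.15, adjusted p = 1.09e-06), and PMD-Sen day 1 minus DDR-Sen day 1 was -2.16 (SE 0.15, adjusted p = 1.67e-12). The 3 differences from Untreated share the same 2 Untreated libraries, and without the larger of these FDXR in PMD-Sen day 1 was at -0.46 and no longer called (adjusted p = 0.0671). With 2 libraries per group, no library could be tested as standing apart from its group.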

How the results depend on the processing

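No paired analysis was possible because the recovered libraries carry no replicate number. Of the calls of single named genes under all alternatives, 2463 kept their direction and their side of the threshold, 181 lost the call, 13 gained it and none reversed. The counts of calls (higher and lower) moved by over 1.5 times as follows. At 2-fold or more they were 410 and 537 against Untreated, 1573 and 1264 against day 0, 153 and 147 for day 2 against day 1, 139 and 297 against Ca2+-Sen and 583 and 496 against DDR-Sen. With genes of a single solution in every group of these comparisons, 1663 were higher than Untreated, 693 higher and 650 lower on day 2, 973 higher and 915 lower than Ca2+-Sen, and 1692 lower than DDR-Sen. Fewer genes were tested in this setting. With scaling by the 75th percentile, 651 were lower than Untreated, 88 lower on day 2, 93 higher than Ca2+-Sen, and 458 higher and 7407 lower than DDR-Sen. This percentile was taken over the genes with a read in each library, and the cause of the shift was not tested. Library totals gave 1565 lower on day 2, and a spread from Untreated and PMD-Sen days alone gave 628; the cause was not tested. Leaving out single libraries gave 1508 to 2070 higher and 1556 to 1853 lower than Untreated, 480 to 822 and 304 to 558 on day 2, 697 to 1272 and 777 to 1104 against Ca2+-Sen, and 1777 to 2653 and 1605 to 2178 against DDR-Sen. Without the smaller PMD-Sen day 1 library, 1508 were higher than Untreated. With the 75th percentile of all genes, the median of all genes was 0.15 against Untreated and 0.21 on day 2. The medians of the G1, immediate early, cytokine, NF-kB, interferon, ESCRT, annexin, ribosomal protein and epithelial lists changed sign in some setting. The counts of calls and medians given for these lists are to be read with that limit. With voom weights, 2144 were higher and 1893 lower than Untreated, and the calls of VCAM1, IL1B, DYSF, NR4A2 and EGR3 were among those lost. Without the jumping genes, an alternative chosen after seeing the data like the percentile of the described genes, 2531 were higher and 2265 lower. With 2 libraries per group, small differences and low counts are measured with little precision.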
